A study of Drosophila melanogaster with 10 samples.

Results

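Heat shock proteins are chaperones, proteins that hold, fold or release other proteins. The genes described are 10 of the 14210 genes listed in the deposited expression tables. Their symbols are Hsp22, Hsp23, Hsp26, Hsp27, Hsp68, Hsp70Aa, Hsp70Ba, Hsp83, Hsc70-4 and Hsf, and each was taken by an exact match of its gene symbol. They were chosen by name and not by their measured values, although earlier results of these data were known. All 10 passed the filter on low values that left 6992 genes.

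The RNA came from neuroblasts, stem cells that make the neurons of the fly brain, sorted from central brains of Drosophila melanogaster. The med27 RNAi pupae expressed an RNA interference construct against med27 (VDRC TID:106703), which encodes part of Mediator, a large complex that bridges transcription factors and RNA polymerase II. The wild-type pupae and the wild-type larvae carried VIE-260B, a landing site with no insert (VDRC TID:60100), in place of that construct. All 3 groups also carried inscuteable-Gal4, a driver active in neuroblasts, and UAS-CD8::GFP, a membrane-bound green fluorescent protein. All animals were kept at 29 °C after 24 h of egg laying, pupae for 6 days (taken 0 to 2 h after pupariation) and larvae for 5 days. There were thus no animals without Gal4 and GFP and none kept at a lower temperature. Sorting by flow cytometry took large cells that were bright for GFP. Each group had 2 biological replicates, and each pupal replicate was sequenced in 2 runs that were averaged. The labels do not say how many brains entered a replicate, so the p-values speak only of the spread between replicate samples. That spread was pooled over the 3 groups and drawn towards the spread of genes at a similar level. The spread of each group thus enters every comparison, also those without that group.

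As background, Hsf is the heat shock transcription factor of the fly. It is inactive in unstressed cells, and in heat or under other protein-damaging stress it forms trimers that bind heat shock genes and raise their transcription. Hsp70Aa, Hsp70Ba and Hsp68 are classic targets, cytosolic chaperones of the Hsp70 family that are scarce without stress. Hsc70-4 is the constitutive cytosolic member of that family, and Hsp83 is the fly's cytosolic Hsp90, which is abundant without stress and induced further by it. Hsp22, Hsp23, Hsp26 and Hsp27 are small heat shock proteins that hold unfolded proteins without using ATP. In the fly the small heat shock genes are also switched on during normal development, and the moulting hormone ecdysone is a known inducer of several of them.

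Expression was given as FPKM, the fragments of a gene scaled to its transcript length and to the mapped fragments of the library, which allows levels to be compared between genes. The deposited confidence bounds implied 27320959 to 31199831 fragments per pupal run and 19030189 and 18702831 for the larval libraries, so larval values carry more counting error. Among the 10 genes the fewest fragments stood behind Hsp70Aa, with 1005 to 5430 per run. The 2 runs of a pupal replicate differed by at most 2.89% for any of the 10 genes. MED27 itself had 5.33 and 3.99 FPKM in the RNAi pupae, against 31.5 and 27.4 FPKM in wild-type pupae and 31.7 and 38.3 FPKM in larvae, so the targeted transcript was low in both RNAi replicates. The summed level of 9 neuroblast markers was 1776 and 1750 FPKM in RNAi pupae, 1990 and 2045 FPKM in wild-type pupae, and 1602 and 1500 FPKM in larvae. The largest part came from mira. By limma 3 of the 9 were lower and 0 higher in RNAi against wild-type pupae, where 8.64% of all genes were lower and 19.6% higher. In wild-type pupae against larvae 5 were higher and 0 lower, where 22.7% of all genes were higher and 26.5% lower. Summed neuron markers (8 genes) reached 76.1 and 78.2 FPKM in RNAi pupae, 77.1 and 152 FPKM in wild-type pupae, and 26.2 and 21.9 FPKM in larvae. Summed glial markers (8 genes) lay between 170 and 211 FPKM in all 6 replicates, most of it from nrv2. Of these, Eaat1, a glutamate transporter, had 18.6 and 18.7 FPKM in RNAi pupae, 61.1 and 71.5 FPKM in wild-type pupae, and 75.6 and 61.4 FPKM in larvae (-1.77 on the log2 scale for RNAi against wild-type pupae, limma adjusted p = 0.000522), while repo, the defining glial transcription factor, was under 1 FPKM in every replicate. Fat body markers reached at most 2.93 FPKM and haemocyte markers at most 1.2 FPKM. The part of these other cells in the results was not tested, and in bulk RNA fewer cells of a type and less RNA per cell cannot be told apart.

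The 10 genes together took 1.56 and 1.66% of all FPKM in RNAi pupae, 1.69 and 1.56% in wild-type pupae, and 1.65 and 1.53% in larvae, so their summed share was alike in the 3 groups. Within that sum the genes spanned a wide range. Hsc70-4 ranked 9 to 63 and Hsp23 ranked 13 to 58 among all genes of a library, followed by Hsp27 at 40 to 88, Hsp83 at 59 to 97 and Hsp26 at 103 to 136. Hsp22 and Hsp68 stood lower, at ranks 151 to 530 and 175 to 635. Hsf, Hsp70Aa and Hsp70Ba had the lowest levels of the 10, with 17.2 to 69 FPKM in any replicate.

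**Figure D1:**
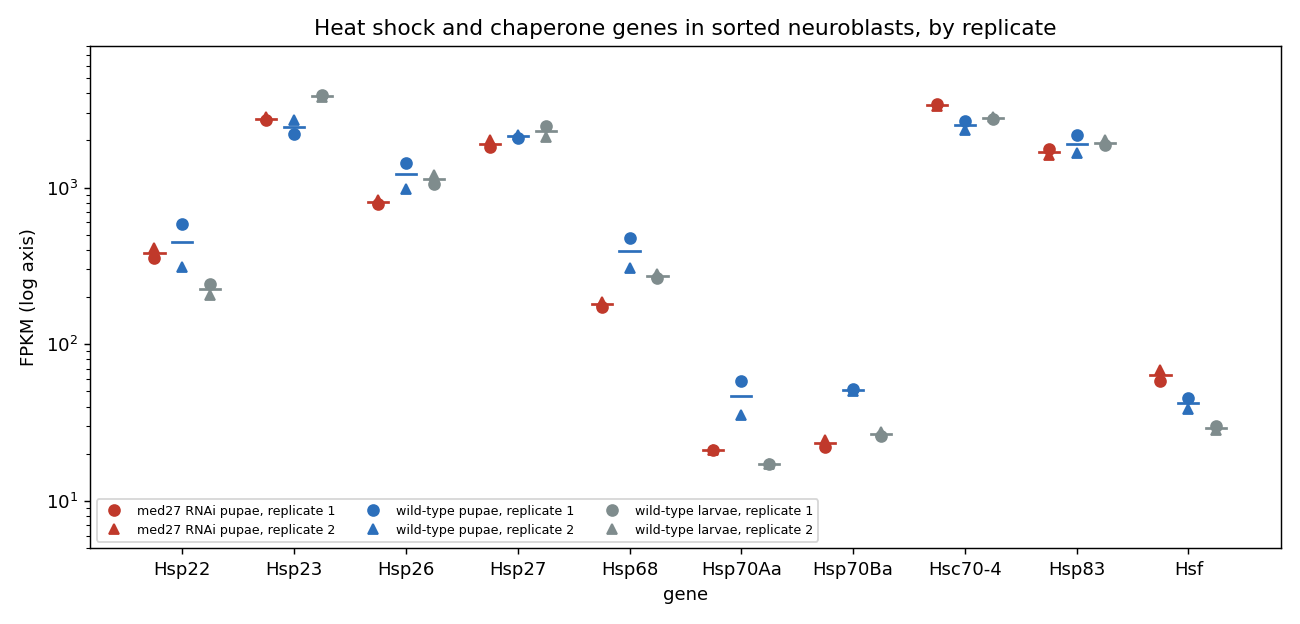
FPKM of each of the 10 genes on a log axis, with 1 point per biological replicate of med27 RNAi pupae, wild-type pupae and wild-type larvae (n = 2 each). Hsf, Hsp70Aa and Hsp70Ba lie below 70 FPKM in every replicate, whereas Hsp23 and Hsc70-4 lie above 2000 FPKM in every replicate.

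In med27 RNAi pupae set against wild-type pupae, Hsp68 and the inducible Hsp70 copies Hsp70Aa and Hsp70Ba were lower, and Hsf and Hsc70-4 were higher. Of the 10 genes, 2 rose (Hsf, Hsc70-4) and 4 fell (Hsp26, Hsp68, Hsp70Aa, Hsp70Ba) by limma with Benjamini-Hochberg adjustment over all genes tested. Across all 6992 genes 28.3% were called in this comparison, 19.6% as higher and 8.64% as lower. Over all genes this split moved to 12.6% higher and 11.2% lower under quantile normalization, and to 14.4 and 12.2% under median-ratio scaling, while the 2 and 4 calls of the 10 genes held in number under quantile normalization. The median log2 fold change was -0.16 over the 10 genes and 0.05 over all genes. In wild-type pupae set against larvae, 4 genes rose (Hsf, Hsp22, Hsp70Aa, Hsp70Ba) and 1 fell (Hsp23), where 49.2% of all genes were called, 22.7% as higher and 26.5% as lower. The called share of the 10 genes was therefore close to the background there. Under quantile normalization 7 of the 10 genes were called higher there and none lower (limma, 0 at an unadjusted p under 0.05). All genes then split into 21.8% higher and 24.5% lower. The median was 0.28 over the 10 genes and -0.07 over all genes. In RNAi pupae set against larvae, 2 rose (Hsf, Hsp22) and 2 fell (Hsp23, Hsp68), where 47.4% of all genes were called, 27.8% as higher and 19.5% as lower. Median-ratio scaling gave 1 higher and 3 lower there. Under quantile normalization 4 rose and 2 fell, and all genes split into 22.7% higher and 23.2% lower. The 3 comparisons share their groups and are not independent of each other. Groups of 2 replicates often did not overlap, so the lack of overlap named below for single genes was usual. In RNAi against wild-type pupae 71.4% of all genes did not overlap, and 7 of the 10 genes. The shares were 77% and 7 genes for wild-type pupae against larvae, and 77.7% and 10 genes for RNAi pupae against larvae.

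**Figure D2:**
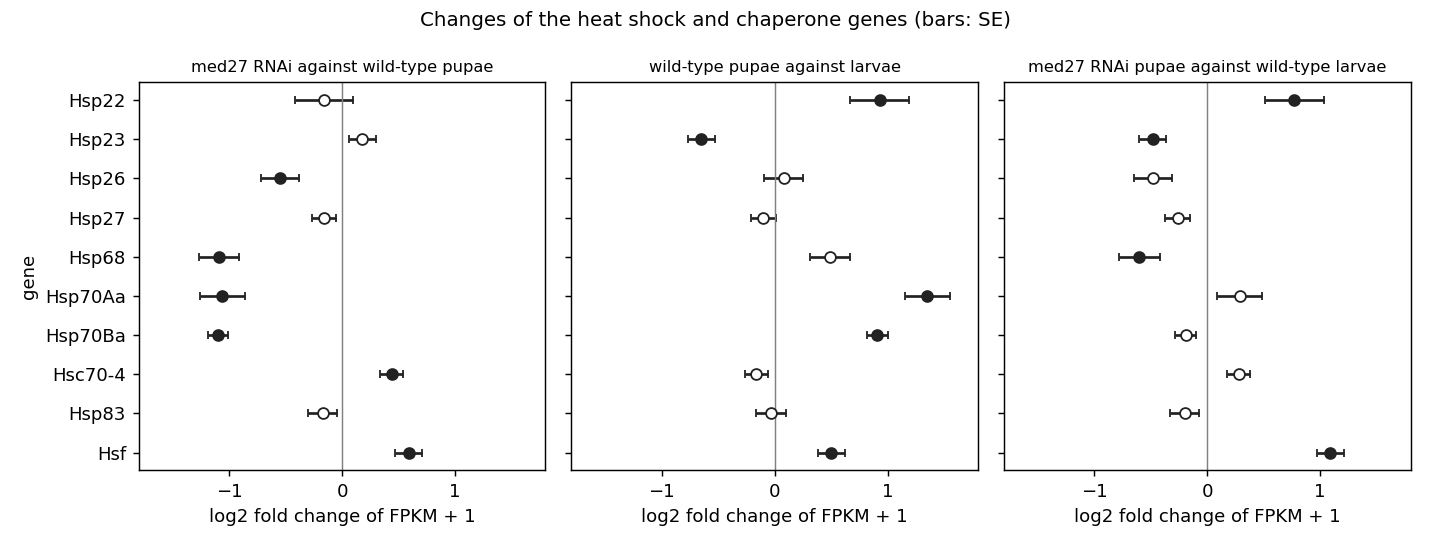
Log2 fold change of log2(FPKM + 1) for each of the 10 genes in RNAi pupae against wild-type pupae, in wild-type pupae against larvae and in RNAi pupae against larvae, with bars of 1 standard error and filled points where the limma adjusted p was under 0.05. Hsp68, Hsp70Aa and Hsp70Ba lie near -1.1 for RNAi pupae against wild-type pupae, and Hsf lies above 0 in every comparison.

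Hsf (FBgn0001222), on chromosome 2R at 14017808 to 14022136 in the coordinates of the deposited tables, for which no genome build is named, rose in all 3 comparisons. It had 58.5 and 69 FPKM in RNAi pupae, 45.6 and 38.4 FPKM in wild-type pupae, and 30 and 28.5 FPKM in larvae. The 3 groups did not overlap. The log2 fold change was 0.59 for RNAi against wild-type pupae (SE 0.12, limma adjusted p = 0.01), 0.50 for wild-type pupae against larvae (SE 0.12, adjusted p = 0.0111) and 1.09 for RNAi pupae against larvae (SE 0.12, adjusted p = 0.000754). Each of the 2 smaller steps depended on single replicates. A replicate left out leaves 1 sample in its group, which is then assumed to vary like the other groups, here and below. For RNAi against wild-type pupae, leaving out wild-type pupal replicate 2 gave an adjusted p of 0.0581 and leaving out RNAi replicate 2 gave 0.0757. For wild-type pupae against larvae, leaving out wild-type pupal replicate 1 gave 0.0538 and leaving out larval replicate 2 gave 0.0539. That step was also lost after removal of a trend with transcript length (0.32, adjusted p = 0.0684). The annotated transcripts of Hsf number 4, with 7 to 9 exons, and their levels were summed per gene.

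Hsp70Ba (FBgn0013277), a single-exon gene on chromosome 3R at 8291026 to 8293500, had 22 and 24.5 FPKM in RNAi pupae, 52.1 and 50 FPKM in wild-type pupae, and 25.9 and 27.5 FPKM in larvae. Both wild-type pupal replicates stood apart above the other 4. The log2 fold change was -1.10 for RNAi against wild-type pupae (SE 0.09, adjusted p = 0.000778) and 0.91 for wild-type pupae against larvae (SE 0.09, adjusted p = 0.00132). RNAi pupae against larvae gave -0.19 (SE 0.09, adjusted p = 0.113), although their values did not overlap.

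Hsp70Aa (FBgn0013275), also a single exon on 3R at 7779885 to 7782514, had 21.3 and 21.1 FPKM in RNAi pupae, 58.4 and 35.2 FPKM in wild-type pupae, and 17.2 FPKM in each larval replicate. The wild-type pupae were again highest, but their replicates lay far apart. The log2 fold change was -1.06 for RNAi against wild-type pupae (SE 0.20, adjusted p = 0.00927), and -0.70 without wild-type pupal replicate 1 (adjusted p = 0.0109). For wild-type pupae against larvae it was 1.35 (SE 0.20, adjusted p = 0.00265), and 0.99 without that replicate (adjusted p = 0.00407).

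Hsp68 (FBgn0001230), a further inducible Hsp70 family gene on 3R at 19880802 to 19883029, was expressed at several times the level of those 2 copies. It had 174 and 185 FPKM in RNAi pupae, 477 and 308 FPKM in wild-type pupae, and 265 and 282 FPKM in larvae. The RNAi pupae were lowest and the wild-type pupae highest, with no overlap. RNAi pupae had a log2 fold change of -1.09 against wild-type pupae (SE 0.18, adjusted p = 0.00597) and -0.60 against larvae (adjusted p = 0.0298). The second of these calls was lost when either larval or either RNAi replicate was left out (adjusted p from 0.0769 to 0.118). Wild-type pupae against larvae gave 0.49 (SE 0.18, adjusted p = 0.0594), which became 0.80 (adjusted p = 0.00965) without wild-type pupal replicate 2 and 0.17 (adjusted p = 0.212) without replicate 1. Hsp68 overlaps CG6000 on the opposite strand, which had 26.6 to 40.4 FPKM. Whether reads were counted by strand is not stated, so reads of the pair may not be separated.

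Hsp70Aa and Hsp70Ba belong to 6 Hsp70 copies that are nearly identical in sequence, so reads may be divided between them by the estimation rather than by their origin. The 6 copies summed to 276 and 294 FPKM in RNAi pupae, 449 and 327 FPKM in wild-type pupae, and 227 and 235 FPKM in larvae. The summed level was thus also highest in wild-type pupae. Its log2 fold change was 0.73 for wild-type pupae against larvae (SE 0.14, adjusted p = 0.00585). For RNAi against wild-type pupae it was -0.43 (SE 0.14, adjusted p = 0.0588), which did not pass the threshold that Hsp70Aa and Hsp70Ba passed singly. A single copy, Hsp70Bb, made up 67.8 and 68% of the sum in RNAi pupae, 53.6 and 58.5% in wild-type pupae, and 59.7 and 56.8% in larvae. Its own log2 fold change between RNAi and wild-type pupae was -0.15 (adjusted p = 0.354), and between wild-type pupae and larvae 0.67 (adjusted p = 0.00366). Without Hsp70Bb the other copies summed to 88.9 and 94.2 FPKM in RNAi pupae, 208 and 136 FPKM in wild-type pupae, and 91.7 and 101 FPKM in larvae.

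**Figure D3:**
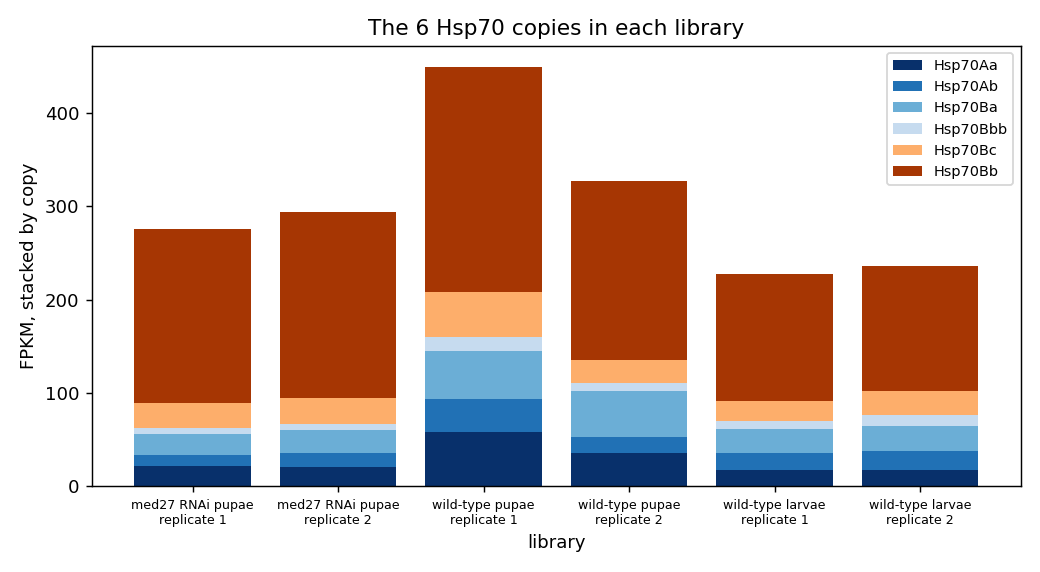
FPKM of the 6 near-identical Hsp70 copies in each biological replicate, stacked by copy and starting at 0, with RNAi pupae, wild-type pupae and larvae in turn (n = 2 each). Hsp70Bb makes up over 53% of every bar, and the bars of the wild-type pupae, 449 and 327 FPKM, are the highest.

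The small heat shock genes lie together on chromosome 3L, where 9 genes are listed within 13.8 kb, from 9364611 to 9378382. Their levels did not move as 1 block. Hsp23 (FBgn0001224, 9374986 to 9375865), a cytosolic small heat shock protein, was the most abundant of the 4. It had 2694 and 2810 FPKM in RNAi pupae, 2192 and 2707 FPKM in wild-type pupae, and 3902 and 3763 FPKM in larvae. Larvae were above all 4 pupal replicates, while the pupal groups overlapped. Hsp23 fell by 0.65 on the log2 scale in wild-type pupae against larvae (SE 0.12, adjusted p = 0.00519) and by 0.48 in RNAi pupae against larvae (adjusted p = 0.0158). The first call was lost under quantile normalization (-0.23, adjusted p = 0.196) and after removal of a trend with transcript length (-0.31, adjusted p = 0.121). The second call was lost when either larval or either RNAi replicate was left out (adjusted p from 0.0535 to 0.0691), and under quantile normalization the direction turned (0.07, adjusted p = 0.676).

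Hsp22 (FBgn0001223, 9366031 to 9368064), the small heat shock protein of mitochondria, was high in pupae instead. It had 353 and 409 FPKM in RNAi pupae, 582 and 310 FPKM in wild-type pupae, and 242 and 206 FPKM in larvae. Every pupal replicate was above both larval ones, and the wild-type pupal replicates lay on either side of the RNAi pupae. Hsp22 rose by 0.93 on the log2 scale in wild-type pupae against larvae (SE 0.26, adjusted p = 0.0227) and by 0.77 in RNAi pupae against larvae (adjusted p = 0.0449). Without wild-type pupal replicate 1 the first was 0.48 (adjusted p = 0.0373), and it was not called without larval replicate 1 (adjusted p = 0.0514) or without larval replicate 2 (adjusted p = 0.119). The second was lost when either larval or either RNAi replicate was left out (adjusted p from 0.0731 to 0.183). RNAi against wild-type pupae gave -0.16 (SE 0.26, adjusted p = 0.674), but 0.29 without wild-type pupal replicate 1 and -0.61 (adjusted p = 0.0386) without replicate 2, so that the direction turned on which replicate was kept.

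Hsp26 (FBgn0001225, 9369518 to 9370527), a further cytosolic small heat shock protein, was lowest in RNAi pupae. It had 785 and 837 FPKM there, against 1440 and 982 FPKM in wild-type pupae and 1057 and 1204 FPKM in larvae. The log2 fold change of RNAi against wild-type pupae was -0.55 (SE 0.17, adjusted p = 0.0499), at the edge of the threshold. It was -0.28 (adjusted p = 0.164) without wild-type pupal replicate 1, and among the 6 fits that leave out 1 replicate it passed only without wild-type pupal replicate 2. Hsp27 (FBgn0001226, 9377165 to 9378382), the small heat shock protein found in nuclei, had 1811 and 2004 FPKM in RNAi pupae, 2072 and 2172 FPKM in wild-type pupae, and 2458 and 2104 FPKM in larvae. Its log2 fold changes were -0.16, -0.10 and -0.26 in the 3 comparisons (RNAi against wild-type pupae, wild-type pupae against larvae, RNAi pupae against larvae), with adjusted p of 0.33, 0.475 and 0.0956.

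Of the neighbours in the same stretch, Hsp67Bc, also a small heat shock gene, had 47.6 and 45.6 FPKM in RNAi pupae, 43.7 and 41 FPKM in wild-type pupae, and 7.37 and 9.37 FPKM in larvae. It rose by 2.22 on the log2 scale in wild-type pupae against larvae (SE 0.12, adjusted p = 0.000395) and differed by 0.14 between RNAi and wild-type pupae (adjusted p = 0.415). Hsp67Ba, between Hsp26 and Hsp23, had 308 and 327 FPKM in RNAi pupae, 200 and 235 FPKM in wild-type pupae, and 242 and 263 FPKM in larvae. Its log2 fold change between RNAi and wild-type pupae was 0.55 (SE 0.10, adjusted p = 0.00733), and the call was lost without RNAi replicate 2 (0.51, adjusted p = 0.0568) and under quantile normalization (0.30, adjusted p = 0.0672). Hsp22 overlaps Hsp67Bb on the same strand, which had at most 0.166 FPKM in any replicate.

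Hsp83 (FBgn0001233), the fly's Hsp90, on 3L at 3193027 to 3197059, had 1766 and 1612 FPKM in RNAi pupae, 2152 and 1664 FPKM in wild-type pupae, and 1872 and 2000 FPKM in larvae. The wild-type pupae overlapped both other groups. Its log2 fold changes were -0.17 for RNAi against wild-type pupae (SE 0.13, adjusted p = 0.391), -0.03 for wild-type pupae against larvae (adjusted p = 0.855) and -0.20 for RNAi pupae against larvae (adjusted p = 0.259). Under quantile normalization the comparisons with larvae changed sign, to 0.31 (adjusted p = 0.0335) for wild-type and 0.29 (adjusted p = 0.0429) for RNAi pupae. Hsp83 overlaps CG14966 on the opposite strand, which had 50.6 to 123 FPKM.

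Hsc70-4 (FBgn0001219), the constitutive Hsp70 of the cytosol, on 3R at 11068370 to 11072336, had 3418 and 3317 FPKM in RNAi pupae, 2673 and 2319 FPKM in wild-type pupae, and 2737 and 2824 FPKM in larvae. The RNAi pupae were above all other replicates. The log2 fold change was 0.44 for RNAi against wild-type pupae (SE 0.10, adjusted p = 0.0212). The call was lost without wild-type pupal replicate 2 (0.33, adjusted p = 0.129), without RNAi replicate 1 (adjusted p = 0.0995) and without RNAi replicate 2 (adjusted p = 0.0841). Wild-type pupae against larvae gave -0.16 (adjusted p = 0.238), and 0.26 (adjusted p = 0.00941) under quantile normalization. Hsc70-4 was thus above the wild-type pupae in both RNAi replicates, whereas the inducible Hsp68, Hsp70Aa and Hsp70Ba were below them.

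The 2 wild-type pupal replicates lay far apart in 4 of the stress-inducible genes. On the log2(FPKM + 1) scale replicate 1 was above replicate 2 by 0.90 for Hsp22, 0.72 for Hsp70Aa, 0.63 for Hsp68 and 0.55 for Hsp26. Over all genes only 1.96, 3.28, 4.32 and 5.45% had a larger absolute difference than these 4 in turn. Replicate 1 was higher in 8 of the 10 genes, and the median difference was 0.31 over the 10 genes and 0.01 over all genes. Hsp70Ba, at 0.06, and Hsp27, at -0.07, differed little, and Hsp23, at -0.30, was lower in replicate 1. The small gap of Hsp70Ba was not shared by the near-identical copies outside the 10 genes. Replicate 1 was higher by 0.97 for Hsp70Ab, 0.92 for Hsp70Bc, 0.75 for Hsp70Bbb and 0.33 for Hsp70Bb. As reads may be divided between the copies by the estimation, the close replicates of Hsp70Ba may not hold for the copies as a set. In the RNAi pupae the median difference over the 10 genes was -0.09 and in the larvae it was -0.02. A list of 10 immediate early, JNK and other stress response genes, which may respond to tissue handling, was also summed. The sum was 58.7 and 69.9 FPKM in RNAi pupae, 112 and 80.8 FPKM in wild-type pupae, and 67.1 and 62.7 FPKM in larvae. It was thus also highest in wild-type pupal replicate 1. Xrp1 alone gave 28.1 and 35.7 FPKM of these sums in RNAi pupae, 70.2 and 46.5 FPKM in wild-type pupae, and 36.2 and 31.4 FPKM in larvae. CG6272 had 19.7 and 12.4 FPKM in wild-type pupae. These 2 genes, which are neither immediate early nor JNK response genes, made up most of the gap between the wild-type pupal sums. The other genes of this list that passed the filter went both ways. Gadd45 (2.94 and 0.71 FPKM) and Jra (5.59 and 5.5 FPKM) were higher in wild-type pupal replicate 1 than in replicate 2. Lower there were puc (6.2 and 8.4 FPKM) and kay (6.12 and 6.39 FPKM). Summed neuron markers were highest in wild-type pupal replicate 2, at 152 FPKM. The part of handling or of cell mixture in these differences was not tested. With wild-type pupal replicate 1 left out, the wild-type pupae hold 1 sample and the spread comes from the other groups. RNAi against wild-type pupae then gave -0.77 for Hsp68, -0.70 for Hsp70Aa, -0.28 for Hsp26 and 0.29 for Hsp22. Hsp70Ba, whose wild-type pupal replicates lay close, gave -1.07.

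**Figure D4:**
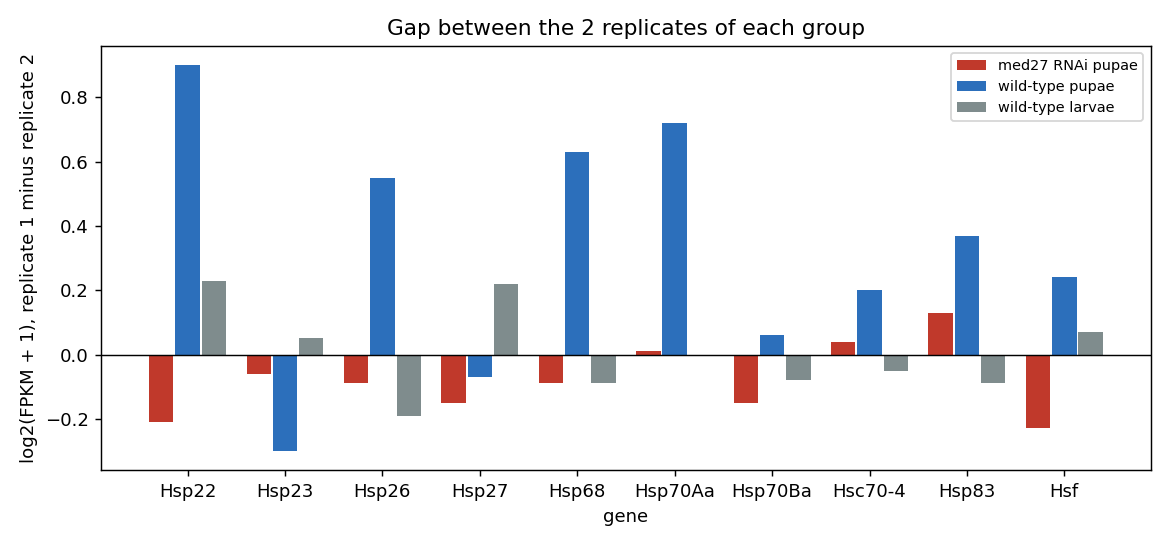
Difference of log2(FPKM + 1) between replicate 1 and replicate 2 for each of the 10 genes within RNAi pupae, wild-type pupae and larvae. In wild-type pupae 8 of the 10 genes lie above 0, up to 0.90 for Hsp22.

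The deposited tables of the authors' own DESeq comparisons, which list genes with an adjusted p below 0.01, held 5 of the 10 genes for each comparison. As a share of all 14210 listed genes, 11.2% (1597 genes) were in the authors' deposited table of RNAi and wild-type pupae. The share was 13.8% (1958 genes) in that of wild-type pupae and larvae. Only 6992 of the listed genes passed the filter on low values here, whereas all 10 genes did. These shares are therefore not a matched background for the 10 genes and may understate it. In the authors' deposited table of RNAi and wild-type pupae, with signs turned here to RNAi over wild type, the log2 fold change was -1.25 for Hsp70Ba, -1.23 for Hsp70Aa, -1.16 for Hsp68, -0.59 for Hsp26 and 0.51 for Hsf. In the authors' deposited table of wild-type pupae and larvae it was 1.60 for Hsp70Ba, 1.49 for Hsp70Aa, 0.68 for Hsf, 0.53 for Hsp68 and -0.71 for Hsp23. Single Hsp70 copies differed between the authors' values and those here in that comparison. Hsp70Ba had 0.91 here, and Hsp70Ab had 1.57 there and 0.33 here (limma adjusted p = 0.348). Closer were Hsp70Aa, with 1.35 here, and Hsp70Bb, with 0.79 there and 0.67 here. Hsc70-4 and Hsp22, called here in 1 of these comparisons each, were in neither of the authors' deposited tables, and Hsp68 was in the table of wild-type pupae and larvae though it missed the threshold here.

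The genes whose pattern over the 6 replicates was most like that of a member were taken by the smallest root mean square difference of centred log2(FPKM + 1). They were CG43693, cbs and CG1603 for Hsp83 (0.0394, 0.049 and 0.0597), and mge, CG42380 and Sgt for Hsc70-4 (0.0336, 0.0346 and 0.0418). For Hsp23 they were AcCoAS, CG2004 and Iap2 (0.0601, 0.0637 and 0.0801). Hsp26 was closest to CG3008, Hsp70Bbb and CG32195 (0.0437, 0.0833 and 0.0859), and Hsp70Bbb is another Hsp70 copy. Hsp70Ba was closest to CG42342, sprt and toc (0.0849, 0.104 and 0.132). The median difference over all other genes was 0.273 for Hsp83, 0.271 for Hsc70-4, 0.346 for Hsp23, 0.39 for Hsp26 and 0.559 for Hsp70Ba.

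Chaperone genes outside the Hsp70 copies that passed the test in RNAi pupae were mostly higher. Of 53 further listed chaperone and co-chaperone genes that passed the filter, which leave out the 10 genes and the other 4 Hsp70 copies, 21 rose and 1 fell in RNAi against wild-type pupae, where 19.6% of all genes rose and 8.64% fell, with a median log2 fold change of 0.21 against 0.05 over all genes. In wild-type pupae against larvae 7 rose and 20 fell, where 22.7% of all genes rose and 26.5% fell, with a median of -0.22 against -0.07 over all genes. Quantile normalization evened both splits, to 10 higher and 6 lower for RNAi against wild-type pupae and 10 higher and 10 lower for wild-type pupae against larvae. Between RNAi and wild-type pupae, 12 rose and 2 fell without wild-type pupal replicate 2, 12 rose without RNAi replicate 1 and 9 rose without RNAi replicate 2. Between wild-type pupae and larvae, 5 rose and 11 fell without wild-type pupal replicate 2, 3 rose and 14 fell without larval replicate 2, and 4 rose and 17 fell without wild-type pupal replicate 1. Of the prefoldin subunits, which pass newly made actin and tubulin to the cytosolic chaperonin, 5 were tested and 4 rose in RNAi against wild-type pupae, with a median of 0.70. The same number rose under quantile normalization, after removal of the length trend and without either wild-type pupal replicate. CG10635, the prefoldin subunit Pfdn4, had 212 and 214 FPKM in RNAi pupae, 88.2 and 91.9 FPKM in wild-type pupae, and 131 and 126 FPKM in larvae, a log2 fold change of 1.23 between RNAi and wild-type pupae (SE 0.07, adjusted p = 0.000522). CG7770, the subunit Pfdn6, had 299 and 296 FPKM in RNAi pupae, 162 and 173 FPKM in wild-type pupae, and 193 and 182 FPKM in larvae, a log2 fold change of 0.83 (SE 0.07, adjusted p = 0.000935). The remaining prefoldin genes that rose were those of subunits Pfdn1 (CG13993, 0.70) and Pfdn2 (0.69). In wild-type pupae against larvae 3 of the 5 fell, and none of these calls was left after removal of the length trend (limma, 0 of 5, with 0 falling at an unadjusted p under 0.05).

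Of the 8 subunits of that cytosolic chaperonin 3 rose in RNAi against wild-type pupae, with a median of 0.18, and 4 fell in wild-type pupae against larvae, with a median of -0.28. Over all genes 19.6% rose in the first comparison and 26.5% fell in the second, where the 4 subunits called of 8 are close to the 49.2% of all genes called in either direction. For RNAi against wild-type pupae limma called 0 of the 8 when wild-type pupal replicate 2, RNAi replicate 1 or RNAi replicate 2 was left out (3 at an unadjusted p under 0.05 each time), and under quantile normalization none was higher and 1 was lower. For wild-type pupae against larvae 2 fell without wild-type pupal replicate 2, and under quantile normalization limma called none (2 fell at an unadjusted p under 0.05). Of 9 genes of protein folding in the endoplasmic reticulum, among them the oxidase Ero1L and the transcription factor Xbp1, 4 rose in RNAi against wild-type pupae, or 2 without RNAi replicate 2, and quantile normalization gave 3 higher and 2 lower. Among them, Pdi, a protein disulfide isomerase, had 495 and 538 FPKM in RNAi pupae, 315 and 303 FPKM in wild-type pupae, and 292 and 291 FPKM in larvae, with a log2 fold change of 0.74 between RNAi and wild-type pupae (SE 0.08, adjusted p = 0.00136). ERp60, also a disulfide isomerase, followed with 0.60 (adjusted p = 0.0036).

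Among 14 genes of Hsp90 chaperones and of co-chaperones of Hsp70 and Hsp90, 5 rose and 1 fell in RNAi against wild-type pupae. Over all genes 19.6% rose and 8.64% fell there. In wild-type pupae against larvae 2 rose and 6 fell, where 22.7% of all genes rose and 26.5% fell. The list includes the Hsp90 chaperones Gp93 and Trap1. Gp93 was among those that rose in RNAi pupae and is also counted above among the genes of the endoplasmic reticulum. Between RNAi and wild-type pupae, 1 rose without RNAi replicate 2, 2 rose without RNAi replicate 1, 3 rose without wild-type pupal replicate 2 and 2 rose under quantile normalization. The one that fell in RNAi pupae was stv, a co-chaperone of the BAG family that works with Hsp70. It had 2.5 and 2.85 FPKM in RNAi pupae, 7.98 and 4.63 FPKM in wild-type pupae, and 2.76 and 2.63 FPKM in larvae, and like Hsp70Aa it was highest in wild-type pupal replicate 1. Its log2 fold change between RNAi and wild-type pupae was -0.95 (SE 0.23, adjusted p = 0.0205), and -0.62 without that replicate (adjusted p = 0.0603). The call was also lost without RNAi replicate 1 (adjusted p = 0.0949) or RNAi replicate 2 (adjusted p = 0.0738). HIP, a co-chaperone that holds Hsp70 in its ADP-bound form in mammals, had 112 and 111 FPKM in RNAi pupae, 107 and 118 FPKM in wild-type pupae, and 70.6 and 54.4 FPKM in larvae (0.85 for wild-type pupae against larvae, adjusted p = 0.00251). FKBP59, a prolyl isomerase that binds Hsp90, fell by 0.79 on the log2 scale in wild-type pupae against larvae (SE 0.09, adjusted p = 0.00163).

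The mitochondrial chaperonin Hsp60 had 277 and 270 FPKM in RNAi pupae, 269 and 282 FPKM in wild-type pupae, and 383 and 397 FPKM in larvae, and so fell in wild-type pupae against larvae (-0.50, SE 0.07, adjusted p = 0.00243) with a difference of -0.01 between RNAi and wild-type pupae (adjusted p = 0.921). Its partner CG11267, the mitochondrial Hsp10, rose in RNAi against wild-type pupae (0.62, adjusted p = 0.00289). Of 10 Hsp40 genes 3 rose and 2 fell in wild-type pupae against larvae, and 1 rose in RNAi against wild-type pupae, which is near the 49.2% of all genes called in the first comparison and below the 28.3% called in the second. The rises in wild-type pupae numbered 1 without larval replicate 2 and 1 without wild-type pupal replicate 1. Csp, an Hsp40 of synaptic vesicles, had 146 and 139 FPKM in RNAi pupae, 141 and 144 FPKM in wild-type pupae, and 102 and 93.4 FPKM in larvae (0.54 for wild-type pupae against larvae, adjusted p = 0.00235). Of 4 genes tied to heat shock gene control, Hsf included, 2 rose and 1 fell in RNAi against wild-type pupae, and 3 rose in wild-type pupae against larvae. Over all genes 19.6% rose and 8.64% fell in the first comparison, and 22.7% rose in the second. Besides Hsf and Trl, the non-coding RNA Hsromega rose in the second (0.75, limma adjusted p = 0.00187). After removal of the length trend it had 0.35 (adjusted p = 0.0541). CG5446 had 134 and 124 FPKM in RNAi pupae, 80.3 and 83.6 FPKM in wild-type pupae, and 71.5 and 79.5 FPKM in larvae, a log2 fold change of 0.65 between RNAi and wild-type pupae (adjusted p = 0.00274). Trl, the GAGA factor that keeps heat shock promoters open, had 32 and 35.3 FPKM in RNAi pupae, 49.6 and 54.8 FPKM in wild-type pupae, and 31 and 37.7 FPKM in larvae. It fell by 0.62 on the log2 scale in RNAi against wild-type pupae (adjusted p = 0.00807), a call lost without wild-type pupal replicate 2 (adjusted p = 0.0523) or RNAi replicate 1 (adjusted p = 0.0538), and it rose by 0.59 in wild-type pupae against larvae (adjusted p = 0.00582).

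**Figure D5:**
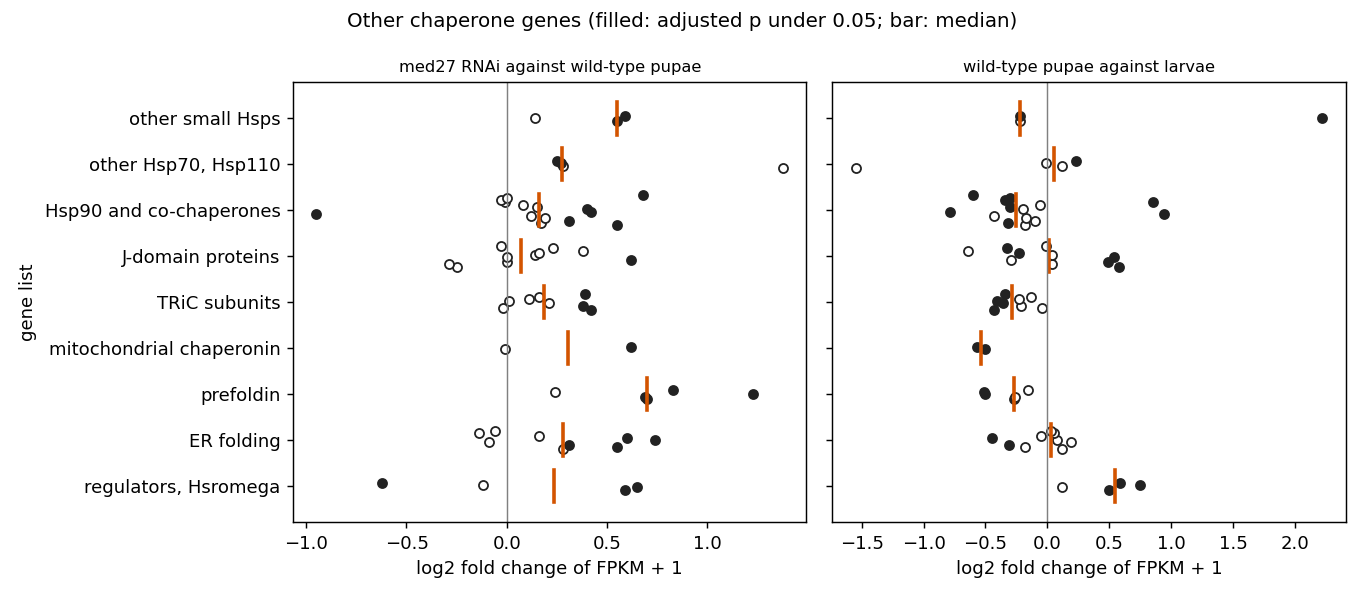
Log2 fold change of every tested gene of the other chaperone lists, 1 point per gene, for RNAi pupae against wild-type pupae and for wild-type pupae against larvae, with filled points where the limma adjusted p was under 0.05 and an orange bar at each list's median. The prefoldin median lies at 0.70 for RNAi pupae against wild-type pupae, and 4 of its 5 points are filled.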

How the data were processed

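Per the file headers, the authors deposited FPKM per gene and run from Cufflinks, a normalized unit and not counts. Per the submitters' processing notes, Cufflinks was version 1.3.0, TopHat 1.4.1, BWA 0.6.1 and DESeq 1.8.3, and HTSeq was also used, with no roles stated. No source used here names the genome build, and coordinates follow the tables, with starts counted from 1. In the authors' 2 deposited DESeq tables, base means are a signal (counts divided by size factors), with their ratio, its log2 and p-values. No source used here says which runs entered them. Fragments were recovered from the deposited confidence bounds: 91.8 to 93.9% of values under 50 fragments in genes with 1 transcript lay within 0.02 of a whole number.

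Runs of a replicate were averaged. Genes with a mean of at least 1 FPKM over the 6 replicates were kept, and log2(FPKM + 1) was tested with limma 3.58.1 (R 4.3.3), with a variance trend, all 3 groups in 1 fit (3 residual degrees of freedom), two-sided, Benjamini-Hochberg adjusted over the 6992 genes, threshold 0.05. Fold changes on this scale understate those of low genes. The procedure was first tested on simulated data. Tables and plots were made with matplotlib 3.10.9, numpy 2.4.6 and pandas 2.3.3 under Python 3.11.15. Transcript lengths, strands and exons came from a reference annotation (BDGP6) by transcript identifier. The members and the other gene lists were chosen with earlier results of these data known. Every member is named. From each other list up to 4 called genes with the largest changes could be named. Of the listed genes, NimC1 and mgr were not matched. Alternatives were another pseudocount and filter, no filter, quantile and median-ratio scaling, removal of a length trend, a replicate block, single technical runs, the summed Hsp70 copies, only the 2 groups compared, and leaving out each replicate.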

Additional observations from a re-analysis of the deposited data

How the results depend on the processing

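Of the 516 values of the 10 genes under the alternatives tried, 437 kept their direction and side of the threshold, 45 lost their call, 15 gained one and 19 changed sign. The cause was not tested. Values that changed sign were not counted among the gains, although some were called. Several alternatives cannot change the direction, as they leave the log2 fold change as it was. These are the changed or absent filter, the replicate block, only the 2 groups compared, and leaving out a replicate of the group not compared. Quantile normalization gave 0.27 for Hsp27, 0.31 for Hsp83 and 0.26 for Hsc70-4 in wild-type pupae against larvae, and 0.07 for Hsp23, 0.26 for Hsp27 and 0.29 for Hsp83 in RNAi pupae against larvae. Removing the length trend, with or without the replicate block, gave 0.09 for Hsp27 in wild-type pupae against larvae and -0.01 for Hsp23 in RNAi against wild-type pupae. Median-ratio scaling gave 0.02 for Hsp83 in wild-type pupae against larvae, and the summed Hsp70 copies gave 0.30 where Hsp70Ba had -0.19. Leaving out 1 replicate gave -0.20 to 0.35 for Hsp26, -0.21 to 0.01 for Hsp27 and -0.22 to 0.15 for Hsp83 in wild-type pupae against larvae, and -0.61 to 0.29 for Hsp22 and -0.35 to 0.02 for Hsp83 in RNAi against wild-type pupae. No scaling moved the median of all genes by over 0.09. For RNAi against wild-type pupae, leaving out 1 replicate gave 0 to 2 members higher (limma), 3 to 5 lower, and 736 to 2262 genes called of all. No filter gave 1 higher, 2 lower and 1315 genes. For wild-type pupae against larvae, leaving out 1 replicate gave 2 to 5 higher and 1 lower each time, and 1910 to 3482 genes. Quantile normalization gave 7 higher and 0 lower (limma, 0 at an unadjusted p under 0.05), with 21.8% of all genes called higher and 24.5% lower. Removing the length trend gave 0 lower (1 unadjusted) and 2261 genes, or 0 lower and 1955 genes with the replicate block as well. For RNAi pupae against larvae, leaving out 1 replicate gave 1 to 3 higher, 0 to 3 lower and 1615 to 3277 genes. No filter gave 1 higher and 0 lower (2 unadjusted), quantile normalization 4 higher and median-ratio scaling 1 higher. Same-numbered replicates did not deviate together over all genes (correlations -0.104 to -0.0256). The labels do not say whether they were collected or processed together, and these correlations cannot show it. With a replicate block, 1537 genes were called for RNAi against wild-type pupae, 3035 for wild-type pupae against larvae and 2938 for RNAi pupae against larvae, and of the members' calls Hsp26 alone was lost (adjusted p = 0.0761). Of the 10 genes Hsp70Aa had the fewest fragments, still 1005 to 5430 per run.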

Other observations

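Hsc70-2, an Hsp70 family gene singled out after its values were seen, had 7.26 and 7.04 FPKM in RNAi pupae, 7.1 and 0.21 FPKM in wild-type pupae, and 8.36 and 7.97 FPKM in larvae. Both runs of wild-type pupal replicate 2 were low, with 0.24 and 0.181 FPKM from 17 and 13 fragments. With limma no group difference of this gene was called (adjusted p = 0.198 for RNAi against wild-type pupae and 0.114 for wild-type pupae against larvae). The authors' deposited tables list it in both comparisons, with a log2 fold change of 0.94 for RNAi over wild-type pupae (adjusted p = 0.00191, sign turned here) and -1.27 for wild-type pupae over larvae (adjusted p = 0.000101).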
